A study of Mus musculus with 16 samples.

Results

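The cyclin-dependent kinase inhibitors of mouse embryonic fibroblasts (MEFs) are the 7 genes Cdkn1a, Cdkn1b and Cdkn1c, the Cip/Kip family, and Cdkn2a, Cdkn2b, Cdkn2c and Cdkn2d, the Ink4 family. They were taken as every gene with one of these symbols in the platform table of the arrays, which gave 7 of 15967 named genes with 11 probes. RNA was measured on 16 Illumina BeadChip arrays without replicates, as each condition has a single array. The labels give 8 arrays to MEFs that were transformed with RasV12, an activated Ras oncogene, and E1A, an adenoviral protein that binds the RB proteins. 4 of these carried Smad1f/f, a floxed and intact Smad1 gene, and 4 carried Smad1-/-, the same gene deleted by Cre. Each genotype was untreated at 0 h or given BMP2, ADR (Adriamycin, doxorubicin, which breaks DNA through topoisomerase II) or both for 12 h. The other 8 arrays were labelled as passage 2 primary, non-transformed control MEFs, untreated or given the same agents, at 8 h and at 16 h. Some titles state BMP2 at 100 ng/ml and ADR at 0.3 uM. No dose is in the titles of arrays given both agents, of primary ADR arrays or of the primary BMP2 array at 16 h. The series' design states BMP2 at 50 ng/ml and doxorubicin at 1 ug/ml, and which doses were used is not settled. In the transformed set a single agent is compared with untreated cells of another time, and the effects of agent and time cannot be told apart there. The same limit holds for the BMP2 by ADR interaction of that set, which includes ADR at 12 h against untreated at 0 h. The labels do not say whether an array is 1 clone or a pool of embryos.

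Progress from G1 into S phase needs cyclin D with CDK4 or CDK6 and cyclin E with CDK2, which phosphorylate RB proteins and so release E2F factors. Ink4 proteins bind CDK4 and CDK6, while Cip/Kip proteins bind a wider range of cyclin and kinase complexes. Cdkn1a encodes p21, the classical p53 target in DNA damage, Cdkn1b encodes p27, and Cdkn1c encodes the imprinted p57. Cdkn2a encodes p16Ink4a and, in another reading frame, Arf, which restrains Mdm2. Cdkn2b encodes p15, a known target of TGF-beta signalling, and Cdkn2c and Cdkn2d encode p18 and p19Ink4d. BMP2 signals through SMAD1, SMAD5 and SMAD8 to genes such as Id1, Id2 and Id3.

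In GRCm38.p6 the RefSeq table places Cdkn2a (chr4:89274473-89294619), Cdkn2b (chr4:89306289-89311032) and Cdkn2c (chr4:109660876-109666756) on chromosome 4, with Cdkn2a and Cdkn2b beside each other. Cdkn1a lies on chromosome 17 (chr17:29090979-29100722), Cdkn1b on chromosome 6 (chr6:134920401-134925525), Cdkn1c on chromosome 7 (chr7:143458339-143461059) and Cdkn2d on chromosome 9 (chr9:21288459-21291421). RefSeq promoter windows, 250 bases before to 50 after a transcription start, matched 6 of the 7 members with 9 windows. Cdkn1a is shown first because its values turn on the conditions in which other p53 targets moved. Its upstream window, chr17:29090729-29091028 on the plus strand, holds 1 p53 response element, the 20 bases in capitals, at chr17:29090928-29090947, first base 51 before the transcription start of that window. The other Cdkn1a window, chr17:29093519-29093818, belongs to a start further downstream and holds no such element. The search took 2 abutting copies of the p53 recognition decamer with at most 1 mismatch in all, on both strands, and was chosen with the known element of this gene in mind.
Cdkn1a: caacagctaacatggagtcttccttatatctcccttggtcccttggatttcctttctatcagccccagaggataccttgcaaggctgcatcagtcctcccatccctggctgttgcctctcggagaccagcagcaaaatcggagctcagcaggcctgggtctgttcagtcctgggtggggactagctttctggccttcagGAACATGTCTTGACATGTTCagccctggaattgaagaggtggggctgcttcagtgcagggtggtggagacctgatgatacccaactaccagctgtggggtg
Such an element was in 29 of 32851 windows (0.0883%) and in none of the other 8 member windows. The upstream window of Cdkn2a holds TTTCCCGC, one of 3 letter forms of the E2F site that were searched on both strands, and this form was in 1.07% of all windows. TTTGGCGC (0.514% of windows) and TTTCGCGC (0.323%) were in no member window. The Cdkn2a stretch, chr4:89294681-89294748 on the minus strand, is shown because E2F joins this gene to the RB pathway that the inhibitors act on, with that form in capitals.
Cdkn2a: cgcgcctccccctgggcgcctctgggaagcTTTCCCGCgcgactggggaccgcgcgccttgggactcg
Cdkn2c is shown because it rose most of the members with the BMP2 label against 0 h on the arrays labelled transformed. Its stretch, chr4:109666733-109666798 on the minus strand, has in capitals GGCGCC, a letter form that SMAD1 and SMAD5 are known to bind.
Cdkn2c: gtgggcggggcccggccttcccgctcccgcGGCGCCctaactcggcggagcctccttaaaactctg
GGCGCC was in 11.9% of all windows and in windows of Cdkn1b, Cdkn2a, Cdkn2c and Cdkn2d. The GC box CCGCCC was in 35.7% of all windows and in at least 1 window of each of the 6 members. TGANTCA, the AP-1 site, was in 7.81% of all windows and in none of the members'. In Cdkn2d a GGCGCC and a GC box share 1 base. These matches describe letters in the windows only.

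Several measurements went against the labels. Of 12 fibroblast markers, 12 were detected on the arrays labelled transformed and 5 on those labelled primary, where Col1a1, Col1a2, Col3a1, Thy1, Dcn, Lum and Postn were undetected on all 8 arrays. Their summed signal ranged from 56183 to 67093 on the former and from 16146 to 21498 on the latter. Of 6 epithelial markers, 3 and 2 were detected, and their summed signal ranged from 485 to 1562 and from 1900 to 4211, respectively. Krt18 read 5.04 to 5.58 on the transformed and 10.63 to 12.05 on the primary arrays. Krt7 and Krt19 went the other way. Krt7 was detected on 8 of 8 transformed (5.60 to 9.72) and 2 of 8 primary arrays (4.84 to 6.18). Krt19 was detected on 4 of 8 transformed (4.67 to 8.13) and 0 of 8 primary arrays (4.43 to 5.02). Epcam, Cdh1 and Krt8 were undetected on all 16. Macrophage markers summed to 326.6 to 472.4 and 175.5 to 210.5, endothelial markers to 245.3 to 303.1 and 241.6 to 278.3, and muscle markers, led by Acta2, to 24074 to 29432 and 229.2 to 286.9. Ptprc was undetected on all 16 arrays, and so were all 4 endothelial markers, Myog and Myod1. The macrophage markers Adgre1 (6.12 to 7.22) and Lyz2 (6.28 to 6.99) were detected on all 8 transformed arrays and on 0 of the 8 primary ones. The part of cell type in the results below was not tested, and in bulk RNA fewer cells of a type and less RNA per cell cannot be told apart. Smad1 differed by 0.0093 ± 0.12 (SE) on the log2 scale between the genotype labels (adjusted p = 0.992 in limma), while Id1 was higher by 1.45 ± 0.22 and Id3 by 1.16 ± 0.16 with the Smad1-/- label (adjusted p = 0.0492 for each). By pair, Smad1 was lower with Smad1-/- untreated (8.36 against 8.865). It was higher with Smad1-/- under BMP2 (8.78 against 8.75), ADR (8.93 against 8.73) and both (9.14 against 8.83). Whether the Smad1 probe lies in the deleted part is not given in the sources used here. On the primary arrays Id1 rose by 1.41 ± 0.14, Id2 by 1.04 ± 0.16 and Id3 by 0.89 ± 0.11 with the ADR label, whereas with the BMP2 label Id2 fell by 0.89 ± 0.16 and Id1 (-0.29 ± 0.14) and Id3 (-0.05 ± 0.11) did not pass. Of 19 listed TGF-beta, BMP and FOXO factors and targets 13 were tested, and these 3 Id genes were those that rose with ADR on the primary arrays, with 0 falling, against 3 higher and 2 lower with BMP2, led by Klf4 (1.54 ± 0.17). Of all genes 0.476% and 14.2% passed in these comparisons. In the transformed set 1 rose and 6 fell with BMP2 against 0 h, led by Id3 (-1.64 ± 0.23), and 0 passed with ADR. When BMP2 was added to ADR there, 3 rose and 5 fell. The Id genes went both ways with BMP2. Id2 went up against 0 h (7.90 to 8.83 with Smad1f/f and 8.69 to 9.50 with Smad1-/-) and when BMP2 was added to ADR (6.45 to 9.19 and 8.92 to 9.91). In the latter Id3 went down (9.32 to 8.41 and 11.18 to 9.76), and Id1 went up with Smad1f/f (7.90 to 9.21) and down with Smad1-/- (10.45 to 10.16). As 49.1%, 3.87% and 58.9% of all genes passed in these comparisons, these transformed counts say little about the list. Each agent is therefore called by its label below, and every direction with an agent rests on it.

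Each array detected 40.1% to 46.8% of its 24613 probes, and precision is limited by how few arrays there are. Levels below are log2 signals after background correction and quantile normalization across all arrays, for the brightest detected probe of a gene, and they compare 1 probe across arrays, never 1 gene with another. Changes are log2 differences with the SE of a limma fit, whose spread was taken from departures from additive terms for genotype or time and agent. The threshold was a p of 0.05 after Benjamini-Hochberg adjustment over all genes tested. Of the 7 members, 6 were detected on all 16 arrays and were tested. Cdkn1b, p27, was detected on 1 array, primary untreated at 8 h, at 5.84, with 4.53 to 4.91 on the other 15, and was not tested. Its other probe was undetected on all 16 arrays, so no change of Cdkn1b could be measured here.

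**Figure D1:**
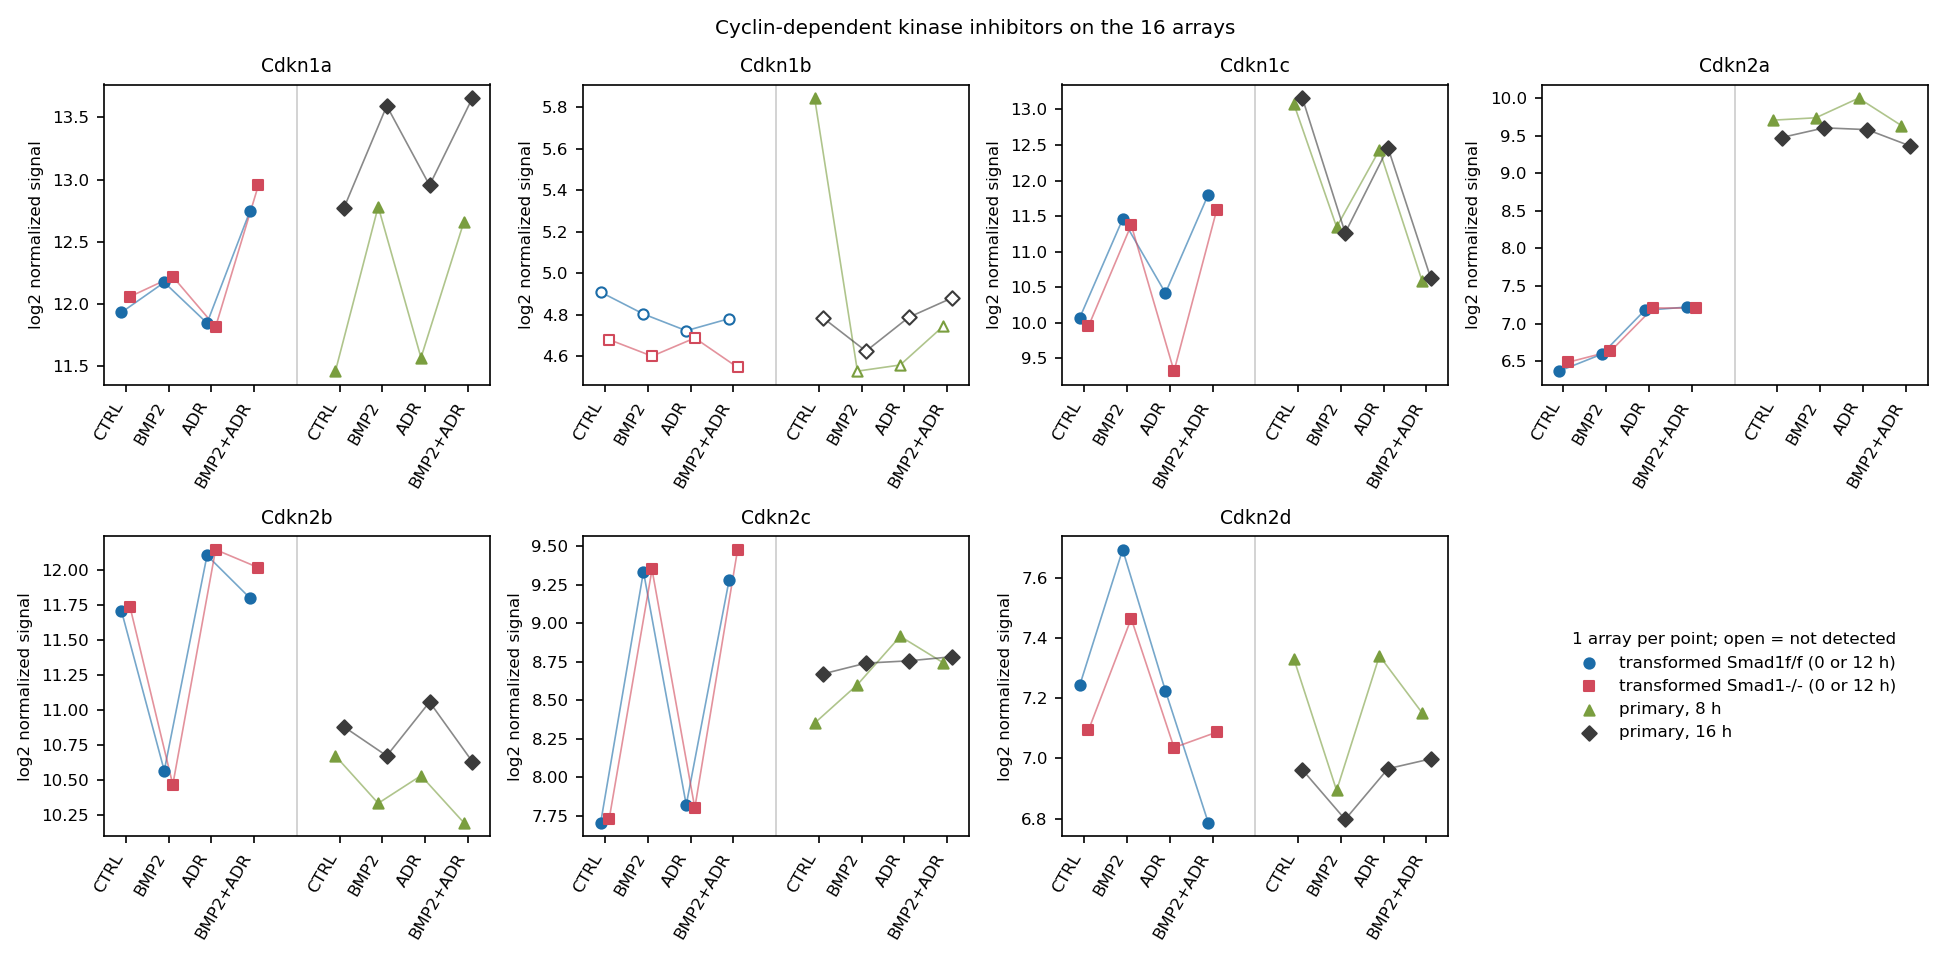
Log2 normalized signal of the brightest detected probe of each of the 7 inhibitors (vertical axis, a scale of its own in each panel) by agent label (horizontal axis), left for the transformed and right for the primary arrays. Each point is 1 array and open points are not detected. Cdkn1c rises from CTRL to BMP2 on the left (10.07 to 11.46 with Smad1f/f) and falls on the right (13.08 to 11.35 at 8 h).

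Cdkn1a, p21, was highest in both sets under labels that include BMP2. With Smad1f/f it read 11.93 untreated, 12.17 with BMP2, 11.85 with ADR and 12.74 with both, and with Smad1-/- 12.06, 12.22, 11.82 and 12.95 in the same order. The arrays with both agents lay above the other 6 of the set, while those with ADR alone lay below those untreated. Under the primary label Cdkn1a read 11.46 untreated, 12.78 with BMP2, 11.57 with ADR and 12.66 with both at 8 h, and 12.77, 13.59, 12.95 and 13.65 at 16 h. Within each time the BMP2 arrays lay above those without BMP2, and every 16 h array lay above its 8 h partner.

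In the transformed set Cdkn1a rose by 1.02 ± 0.08, or 2.02-fold, when BMP2 was added to ADR (adjusted p = 1.22e-06, higher in 2 of 2 genotypes), where 4 of the 6 members tested and 58.9% of all genes passed. It rose by 0.65 ± 0.08 when ADR was added to BMP2 (adjusted p = 0.000104, 2 of 2), where 4 of 6 members and 38.9% of all genes passed. ADR alone against 0 h gave -0.16 ± 0.08 (adjusted p = 0.267), and there 2 of 6 members and 3.87% of all genes passed. Under median scaling it was -0.36 and passed (adjusted p = 0.038), and in the authors' log2 values it was -0.30 (adjusted p = 0.063). BMP2 alone against 0 h gave 0.20 ± 0.08 (adjusted p = 0.0475), in a comparison with 4 of 6 members and 49.1% of all genes past the threshold. The BMP2 call did not hold throughout, since median scaling turned it to -0.021 (adjusted p = 0.863), 4 further alternatives gave an adjusted p from 0.0565 to 0.147, and leaving out any 1 of the 4 arrays gave 0.114 to 0.233. The difference with ADR was larger with BMP2 than without by 0.82 ± 0.11 (interaction, adjusted p = 0.000688), and 2 of 6 members and 23.1% of all genes passed that test. Without BMP2 the difference is ADR at 12 h against 0 h, so time and the interaction cannot be told apart. By pair, ADR moved Cdkn1a by -0.09 and -0.24 without BMP2 and by 0.57 and 0.73 with it.

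On the primary arrays Cdkn1a was 1.07 ± 0.11 higher with BMP2 than untreated (adjusted p = 2e-05), with differences of 1.32 at 8 h and 0.82 at 16 h, in a comparison where 2 of 6 members and 14.2% of all genes passed. BMP2 added to ADR gave 0.89 ± 0.11 (adjusted p = 9.88e-05, 2 of 2 times), where 3 of 6 members and 13.4% of all genes passed. From 8 h to 16 h Cdkn1a rose by 1.13 ± 0.08 (adjusted p = 3.14e-07, 4 of 4 pairs), and 3 of 6 members and 33.8% of all genes passed. Neither ADR against untreated (0.14 ± 0.11, adjusted p = 0.737) nor ADR added to BMP2 (-0.03 ± 0.11, adjusted p = 0.983) passed for Cdkn1a, and these comparisons held 1 of 6 members each against 0.476% and 0.19% of all genes. Of the BMP2 by ADR interaction on these arrays, 0 of 6 members and 0.0% of all genes passed limma's test, with 1 member, Cdkn2a, and 583 of 9457 genes at an unadjusted p under 0.05. ADR added to BMP2 had a larger effect on Cdkn1a in the transformed set, as the mean of both genotypes, than on the primary arrays. The difference was 0.68 ± 0.15 (adjusted p = 0.00431), in a test that 5 of 6 members and 23.5% of all genes passed.

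The second Cdkn1a probe followed the first, with Pearson r = 0.978 over the 8 transformed and 0.995 over the 8 primary arrays, as a description of arrays that share their RNA. It gave 0.99 ± 0.08 for BMP2 added to ADR and 0.78 ± 0.11 for the interaction in the transformed set (adjusted p = 2.35e-06 and 0.00119), and 0.93 ± 0.11 for BMP2 on the primary arrays (adjusted p = 6.37e-05). Only its rise with BMP2 alone against 0 h, 0.21 ± 0.08, fell short of the threshold among the comparisons in which the first probe passed (adjusted p = 0.0565).

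**Figure D2:**
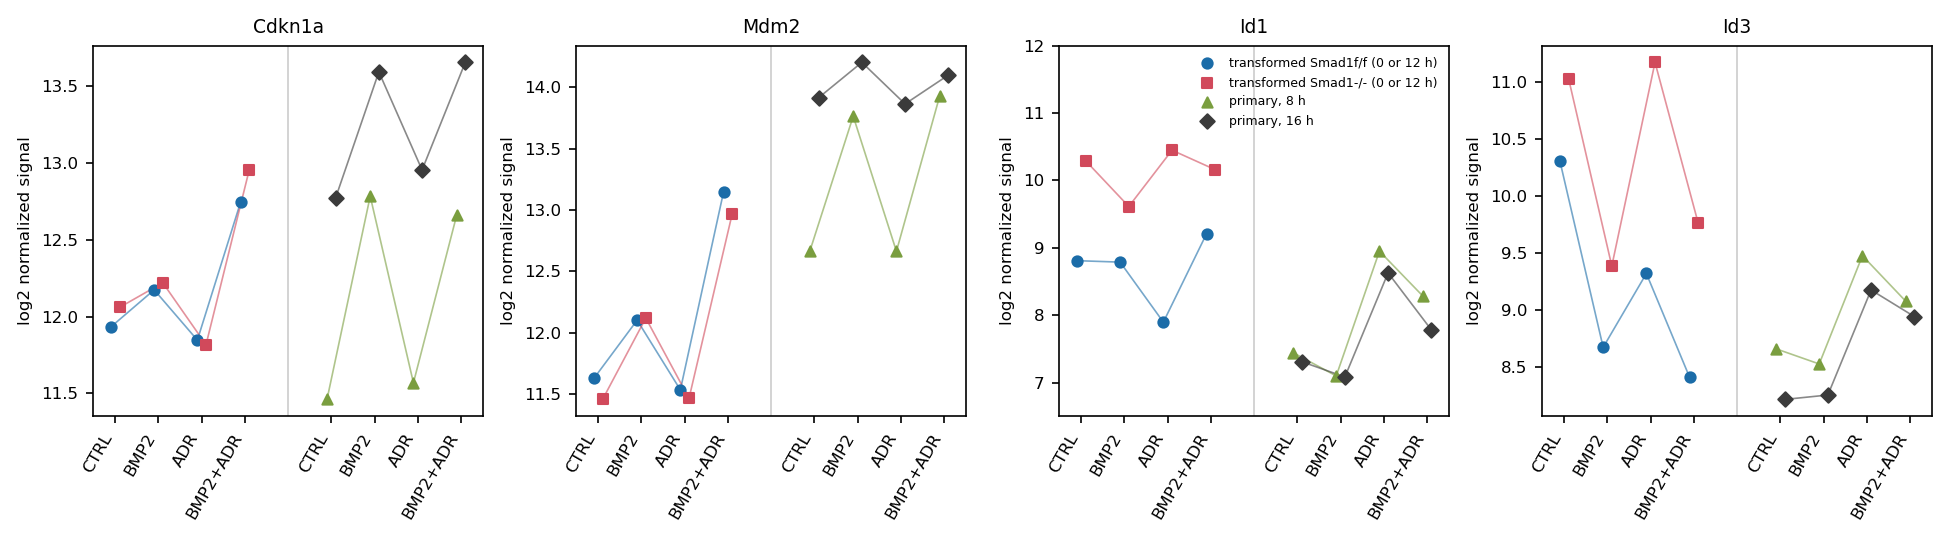
Log2 normalized signal (vertical axis) of Cdkn1a, of Mdm2, which is a p53 target, and of Id1 and Id3, which are BMP targets, by agent label, 1 array per point, left for the transformed and right for the primary arrays. On the primary arrays Cdkn1a and Mdm2 are higher with the BMP2 label, and Id1 and Id3 with the ADR label.

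Other genes of the p53 pathway were counted in the same comparisons. Of 20 listed, 14 were tested in the transformed set, where 8 rose and 1 fell when BMP2 was added to ADR (list median 0.71, all genes -0.08), a count of 9 of 14 beside 58.9% of all genes passing. Among them Fas, a death receptor, rose by 3.22 ± 0.13, Pmaip1, the BH3 protein Noxa, by 2.80 ± 0.11, Perp by 2.04 ± 0.17 and Mdm2, the p53 ubiquitin ligase, by 1.56 ± 0.07. When ADR was added to BMP2, 7 rose and 0 fell, with Perp at 1.57 ± 0.17 and Mdm2 at 0.95 ± 0.07 (list median 0.23, all genes -0.02), beside 38.9% of all genes. With ADR alone 2 rose, Gadd45a by 0.91 ± 0.12 and Trp53inp1 by 0.55 ± 0.11, Ccng1 fell by 0.30 ± 0.07, and Mdm2 (-0.04 ± 0.07) did not pass. Of the 16 tested on the primary arrays 7 rose with BMP2 against untreated, among them Pmaip1 by 1.07 ± 0.13, Mdm2 by 0.69 ± 0.19, Plk3 by 0.66 ± 0.09 and Phlda3 by 0.64 ± 0.15 (list median 0.42, all genes -0.03), beside 14.2% of all genes. With ADR against untreated 0 of 16 passed in either direction (list median 0.05), and Mdm2 gave -0.03 ± 0.19. From 8 h to 16 h 12 of the 16 rose, beside 33.8% of all genes passing, with Mdm2 higher by 0.76 ± 0.13. Trp53 had no tested probe.

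Cdkn1c, p57, moved in opposite directions in the 2 sets. With Smad1f/f it read 10.07 untreated, 11.46 with BMP2, 10.42 with ADR and 11.80 with both, and with Smad1-/- 9.95, 11.38, 9.32 and 11.59. The 4 arrays with BMP2 lay above the 4 without, in a set where 49.1% and 58.9% of all genes passed in the BMP2 comparisons. The primary arrays gave 13.08 untreated, 11.35 with BMP2, 12.43 with ADR and 10.58 with both at 8 h, and 13.16, 11.26, 12.46 and 10.63 at 16 h. There the order from highest to lowest was untreated, ADR, BMP2, both at each time. How many of all genes keep such an order was not counted.

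In the transformed set Cdkn1c rose by 1.40 ± 0.20, or 2.65-fold, with BMP2 against 0 h (adjusted p = 0.000196) and by 1.83 ± 0.20, or 3.55-fold, when BMP2 was added to ADR (adjusted p = 1.99e-05). The differences were 1.38 and 1.42 in the first comparison and 1.38 with Smad1f/f and 2.27 with Smad1-/- in the second. ADR gave -0.14 ± 0.20 alone and 0.28 ± 0.20 added to BMP2, and neither passed (adjusted p = 0.759 and 0.295). By pair, ADR alone gave 0.34 with Smad1f/f and -0.63 with Smad1-/-, of opposite sign. Without the Smad1f/f ADR array ADR alone became -0.62 (adjusted p = 0.0164), without the Smad1-/- ADR array it became 0.34 (adjusted p = 0.114), and in these fits ADR added to BMP2 passed at the same 0.28 (adjusted p = 0.0134 and 0.0127). The interaction was 0.42 (adjusted p = 0.314), and it was 0.90 (adjusted p = 0.00136) and -0.056 (adjusted p = 0.785) without these arrays in turn. With primary cells Cdkn1c fell by 1.81 ± 0.08, a 3.51-fold difference, with BMP2 (adjusted p = 1.87e-09) and fell by 1.84 ± 0.08 when BMP2 was added to ADR (adjusted p = 1.53e-09). It also fell by 0.67 ± 0.08 with ADR (adjusted p = 0.000425) and fell by 0.70 ± 0.08 when ADR was added to BMP2 (adjusted p = 0.000794), in 2 of 2 times each, and was the 1 member to pass there. In 1 fit of all 16 arrays these ADR calls were lost at the same sizes (adjusted p = 0.108 and 0.23), and the second was lost without the BMP2 array at 8 h (-0.63, adjusted p = 0.0589). Between 8 h and 16 h Cdkn1c differed by 0.018 ± 0.053 (adjusted p = 0.824).

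The difference between the sets was itself tested. BMP2 added to ADR moved Cdkn1c by 3.67 ± 0.23 more in the transformed set, as the mean of both genotypes, than on the primary arrays (adjusted p = 6.56e-09). That test was passed by 2 of 6 members and 46.3% of all genes. ADR added to BMP2 differed by 0.98 ± 0.23 (adjusted p = 0.00653), which leaving out the Smad1f/f BMP2 array took to 0.78 (adjusted p = 0.0509). Cdkn1c was also the member with the widest gap between genotype labels, -1.10 on the ADR arrays against -0.12 untreated, -0.08 with BMP2 and -0.21 with both. The mean over the 4 pairs was -0.38 ± 0.14 (adjusted p = 0.389), and the genotype by ADR interaction was -0.55 ± 0.23 (adjusted p = 0.793).

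Of 10 imprinted neighbours and partners of Cdkn1c, 6 were tested in the transformed set and 5 on the primary arrays. Phlda2, which lies in the same imprinted cluster, rose by 1.71 ± 0.19 with BMP2 and by 1.62 ± 0.19 when BMP2 was added to ADR in the transformed set, and on the primary arrays it fell (-0.89 ± 0.12 and -1.02 ± 0.12). It was the 1 of 6 to rise in each transformed comparison, with 0 and 2 others falling, the latter being Mest (-0.79 ± 0.28) and Peg3 (-0.77 ± 0.16). On the primary arrays 2 of 5 fell with BMP2, the other being Mest (-0.55 ± 0.15), and 3 of 5 when BMP2 was added to ADR, with Dlk1 at -0.95 ± 0.17 and Mest at -0.71 ± 0.15. The list medians were 0.10 and 0.18 in the transformed set and -0.37 and -0.71 on the primary arrays, against all-gene medians from -0.08 to -0.0019, and 49.1%, 58.9%, 14.2% and 13.4% of all genes passed in these 4 comparisons.

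**Figure D3:**
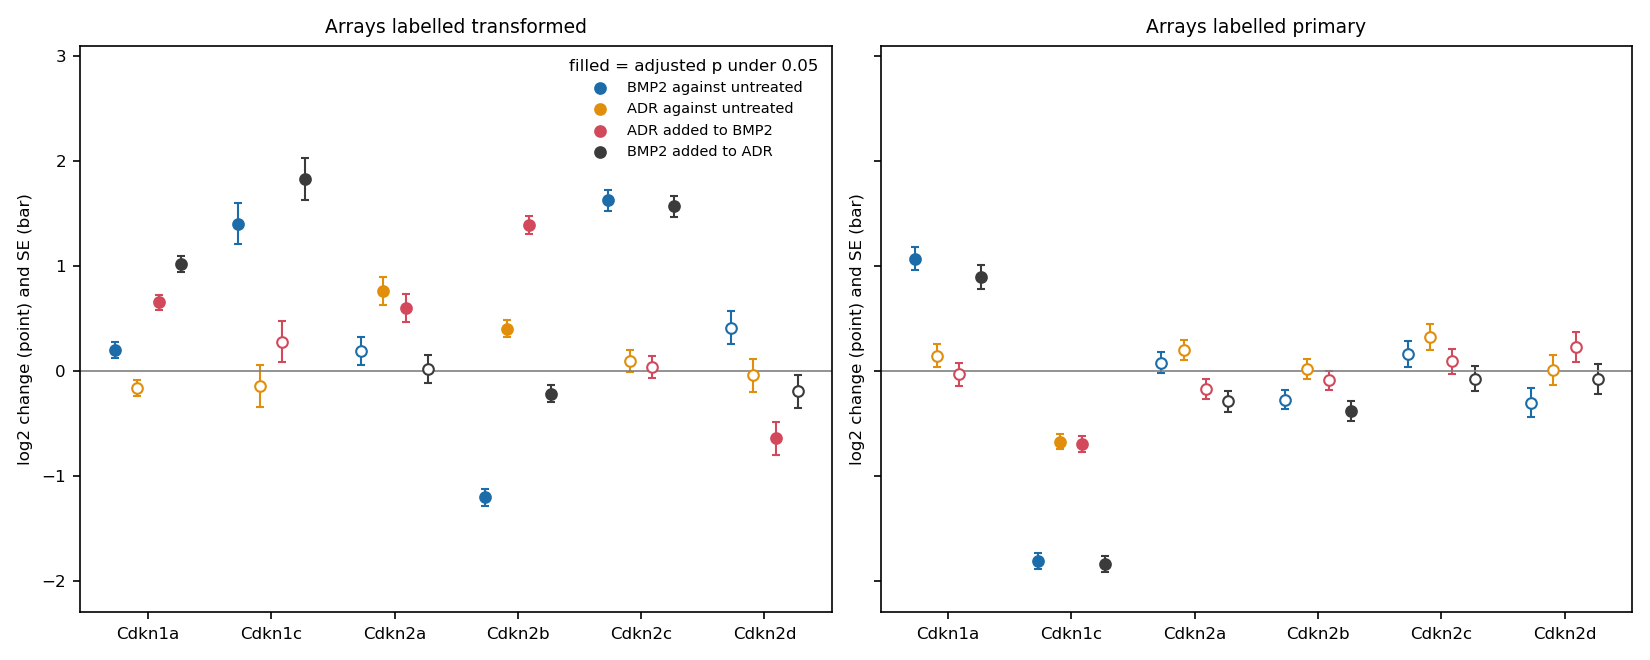
Log2 change (point) and SE (bar) of the 6 tested inhibitors in 4 comparisons of agent labels, left for the transformed and right for the primary arrays. Filled points have an adjusted p under 0.05. The BMP2 comparisons of Cdkn1c sit at 1.40 and 1.83 on the left and at -1.81 and -1.84 on the right.

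Cdkn2b, p15, fell with BMP2 in the transformed set and returned when ADR was present. It read 11.71 and 11.74 untreated (Smad1f/f, then Smad1-/-), 10.57 and 10.47 with BMP2, 12.10 and 12.14 with ADR and 11.80 and 12.02 with both. The BMP2 pair lay more than 1 log2 unit below every other array of the set. Against 0 h, BMP2 gave -1.20 ± 0.08, a 2.30-fold difference (adjusted p = 1.56e-06), and ADR gave 0.40 ± 0.08 (adjusted p = 0.0298), both in 2 of 2 genotypes. The ADR call was lost under median scaling (0.21, adjusted p = 0.283), in the authors' log2 values (0.27, adjusted p = 0.191) and without any 1 of its 4 arrays (adjusted p from 0.1 to 0.217). ADR added to BMP2 raised Cdkn2b by 1.39 ± 0.08, or 2.62-fold (adjusted p = 2.77e-06), with differences of 1.23 and 1.55. The interaction, which includes ADR at 12 h against untreated at 0 h, was 0.99 ± 0.12 (adjusted p = 0.000454). BMP2 added to ADR gave -0.22 ± 0.08 (adjusted p = 0.0448), a call lost under 3 of the alternatives and without 5 of the 8 arrays, with an adjusted p of up to 0.4 without the Smad1f/f array given both agents.

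The primary arrays gave Cdkn2b levels of 10.67 untreated, 10.34 with BMP2, 10.53 with ADR and 10.20 with both at 8 h, and 10.88, 10.67, 11.06 and 10.63 at 16 h. It rose by 0.38 ± 0.06 from 8 h to 16 h (adjusted p = 0.000577, 4 of 4 pairs). BMP2 added to ADR gave -0.38 ± 0.09 (adjusted p = 0.0131), which was lost without 3 of the arrays (adjusted p of up to 0.188 without ADR at 16 h), and BMP2 against untreated gave -0.27 ± 0.09 (adjusted p = 0.0636). Neither ADR comparison passed, with 0.019 ± 0.09 alone and -0.09 ± 0.09 added to BMP2. The effect of ADR added to BMP2 was larger in the transformed set, as the mean of both genotypes, by 1.48 ± 0.12 (adjusted p = 1.26e-06).

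**Figure D4:**
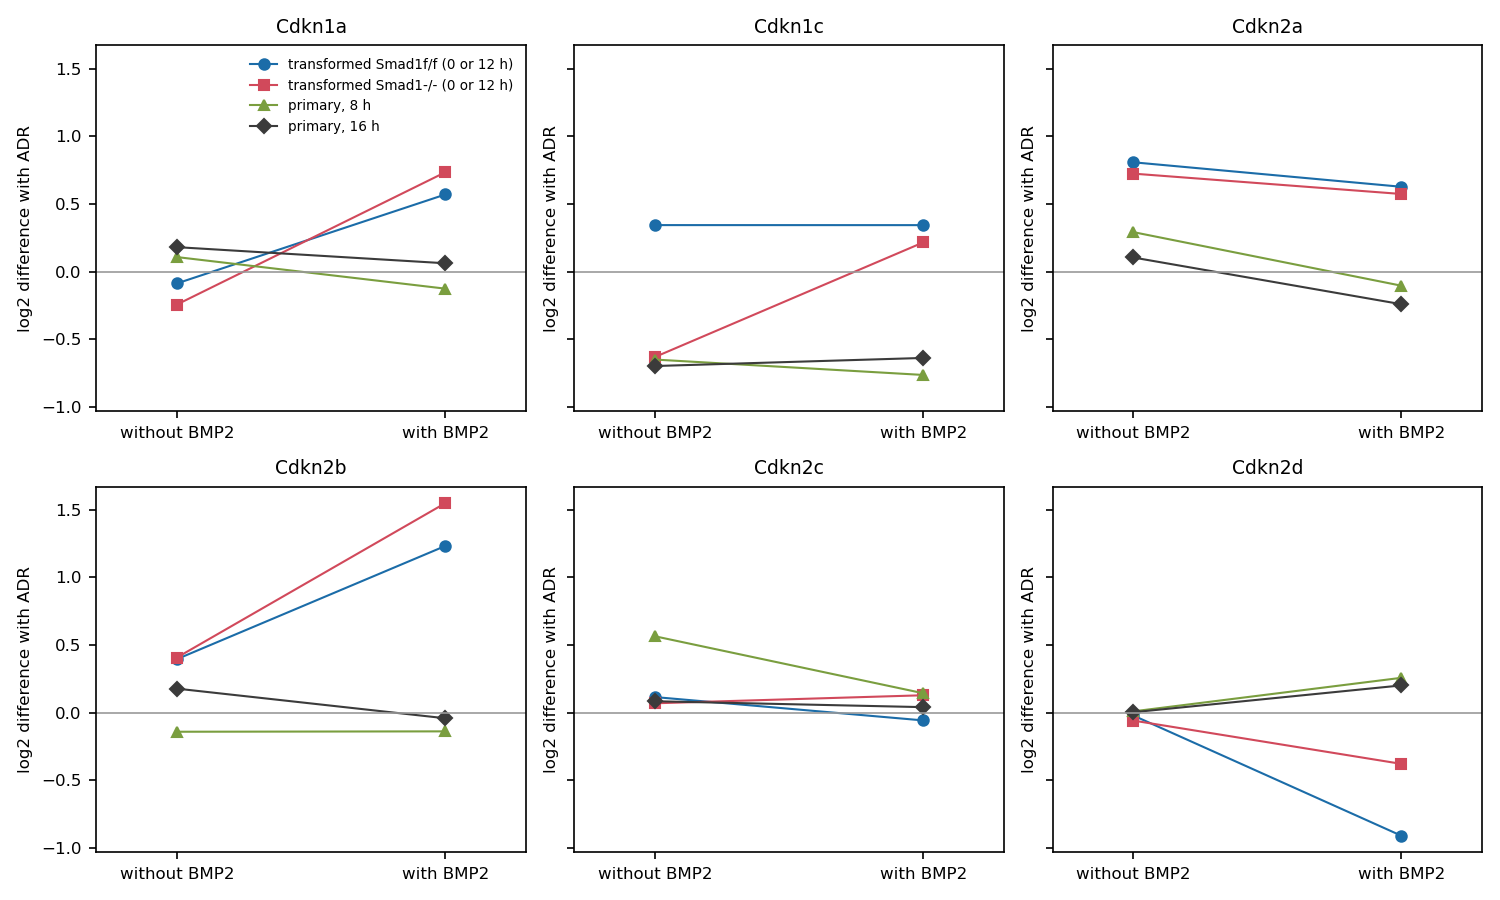
Log2 difference with ADR (vertical axis) without BMP2 and with BMP2 (horizontal axis) for the 6 tested inhibitors, 1 line per pair of arrays. Without BMP2 the transformed differences are ADR at 12 h against untreated at 0 h. For Cdkn2b the transformed lines climb from 0.40 and 0.41 to 1.23 and 1.55, while the primary ones stay between -0.14 and 0.18.

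Cdkn2c, p18, separated the transformed arrays by the BMP2 label. It read 7.71 and 7.73 untreated, 9.34 and 9.35 with BMP2, 7.82 and 7.80 with ADR and 9.28 and 9.48 with both. The 4 BMP2 arrays lay between 9.28 and 9.48 and the 4 others between 7.71 and 7.82. In the BMP2 comparisons of this set 49.1% and 58.9% of all genes passed. BMP2 gave 1.62 ± 0.10 against 0 h, or 3.08-fold (adjusted p = 9.28e-07), and 1.57 ± 0.10 when added to ADR (adjusted p = 5.44e-07), both in 2 of 2 genotypes. ADR gave 0.09 ± 0.10 alone and 0.04 ± 0.10 added to BMP2, and neither passed. Its dimmer second probe, detected on 7 of the 8 arrays, also rose with BMP2, by 1.59 ± 0.15 and 2.52 ± 0.15 (adjusted p = 1.25e-05 and 2.71e-07), but differed for ADR added to BMP2, where it rose by 0.95 ± 0.15 (adjusted p = 0.000722). The probes thus disagree on whether ADR adds to BMP2, with an interaction of -0.06 ± 0.15 for the first (adjusted p = 0.818) and 0.92 ± 0.21 for the second (adjusted p = 0.0122). The first probe ranged on the primary arrays from 8.35, untreated at 8 h, to 8.92, ADR at 8 h, and passed in 0 of the 5 comparisons of time and agent. The second probe rose there from 8 h to 16 h by 0.45 ± 0.11 (adjusted p = 0.00614). BMP2 added to ADR differed between the sets by 1.64 ± 0.16 for the first probe (adjusted p = 5.83e-07).

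Cdkn2a has probes annotated to different RefSeq transcripts, and since the place of each probe is not given in the sources used here, p16Ink4a and Arf were not told apart. The brighter probe read 6.37 and 6.48 untreated, 6.59 and 6.63 with BMP2, 7.17 and 7.21 with ADR and 7.22 and 7.20 with both in the transformed set. All 4 ADR arrays lay above the 4 without, in a set where 3.87% and 38.9% of all genes passed in the ADR comparisons. ADR gave 0.77 ± 0.13 against 0 h, or 1.70-fold (adjusted p = 0.0165), which was lost without any 1 of its 4 arrays (adjusted p from 0.0655 to 0.187), and 0.60 ± 0.13 when added to BMP2 (adjusted p = 0.00523). BMP2 gave 0.19 ± 0.13 and 0.021 ± 0.13, and neither passed. The same probe read on the primary arrays 9.70 untreated, 9.74 with BMP2, 9.997 with ADR and 9.63 with both at 8 h, and 9.47, 9.60, 9.58 and 9.36 at 16 h. It fell by 0.26 ± 0.07 from 8 h to 16 h (adjusted p = 0.00923, 4 of 4 pairs), while the other probe gave 0.10 ± 0.11 (adjusted p = 0.547), so the probes disagree in sign. The call of the brighter probe was lost under median scaling (-0.18, adjusted p = 0.118) and without the ADR array of 8 h or of 16 h (-0.21, adjusted p = 0.0619 and 0.0598), and the mean of the probes gave -0.084 (adjusted p = 0.437). The other probe was detected on 1 of 8 transformed arrays and on all 8 primary ones, at 7.19 to 7.75. The probes also disagree on the difference between the sets in ADR added to BMP2. It was 0.77 ± 0.15 for the brighter (adjusted p = 0.00144) and -0.22 ± 0.25 for the other (adjusted p = 0.593), which was detected on 1 of 8 transformed arrays.

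Cdkn2d, p19Ink4d, read 7.25 and 7.09 untreated, 7.69 and 7.47 with BMP2, 7.23 and 7.04 with ADR and 6.79 and 7.09 with both in the transformed set. The BMP2 pair was highest, and the 6 others overlapped. ADR added to BMP2 gave -0.64 ± 0.16, a 1.56-fold difference (adjusted p = 0.00868), with -0.91 for Smad1f/f and -0.38 for Smad1-/-. Median scaling (-0.43, adjusted p = 0.0642) and leaving out the Smad1f/f array with BMP2 (-0.53, adjusted p = 0.0934) or with both agents (-0.40, adjusted p = 0.104) lost that call. BMP2 against 0 h gave 0.41 ± 0.16 (adjusted p = 0.0517), and this passed under 6 alternatives (adjusted p from 0.0331 to 0.046) and without either of the arrays given both agents (adjusted p = 0.0232 and 0.0238). Cdkn2d ranged on the primary arrays from 6.80, BMP2 at 16 h, to 7.34, ADR at 8 h, and passed in 0 of the 5 comparisons. The effect of ADR added to BMP2 was lower in the transformed set, as the mean of both genotypes, by -0.87 ± 0.21 (adjusted p = 0.00713). That call was lost without the Smad1f/f array given both agents (-0.63).

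No member passed for the genotype labels. Of 6 tested, 0 passed for Smad1-/- against Smad1f/f, where 0.136% of all genes passed, and 0 passed for the genotype by ADR and genotype by BMP2 interactions, where 0.0% of all genes passed. At an unadjusted p under 0.05 the members numbered 1, 1 and 0 and all genes 1059, 637 and 611 of 10283. Apart from Cdkn1c the mean genotype differences lay between -0.07 ± 0.11 (Cdkn2d) and 0.09 ± 0.05 (Cdkn1a), all with adjusted p of 0.621 or more. Without 1 or the other of the arrays given both agents the genotype by ADR interaction of Cdkn1c was -0.99, with an adjusted p of 0.00527 or 0.0078, and it then rests on the untreated, BMP2 and ADR arrays, where the ADR pair holds the -1.10 difference.

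The mean level of the 4 transformed Smad1f/f arrays was set against that of the primary arrays for each probe, in a comparison where 5 of 6 members and 78.2% of all genes passed, so a pass there says little about a member. Cdkn2a was lower by -2.80 ± 0.06, a 6.95-fold difference (adjusted p = 8.03e-16). Its other probe gave -2.37 ± 0.11 but was detected on 1 of 8 transformed arrays, so the size of that value is limited by background. Cdkn1c was lower (-0.93 ± 0.10), as was Cdkn1a (-0.51 ± 0.07, but -0.27 ± 0.07 with its other probe and -0.29 under median scaling), while Cdkn2b was higher (0.92 ± 0.05). Cdkn2c at -0.16 ± 0.07 passed only just (adjusted p = 0.0454) and was lost under 3 of the alternatives and without any 1 of 12 arrays. Cdkn2d gave 0.18 ± 0.09 (adjusted p = 0.0788), and passed at 0.31 without the Smad1f/f array given both agents (adjusted p = 0.0097) and at 0.18 without the Smad1-/- one (adjusted p = 0.0479). These sets also differ in the fibroblast markers given above.

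The inhibitors are known to act on genes of S phase through RB and E2F, a link that was not tested here. The transformed cells are labelled as carrying E1A, which itself binds the RB proteins. Of 18 listed E2F targets of S phase 15 were tested, and in the transformed set 14 fell and 0 rose when ADR was added to BMP2 (list median -1.02, all genes -0.02), where 38.9% of all genes passed. In that comparison Cdkn1a, Cdkn2a and Cdkn2b rose, Cdkn2d fell, and Cdkn1c and Cdkn2c did not pass. The log2 change was -2.21 ± 0.10 for Tk1, thymidine kinase, -2.04 ± 0.11 for Mcm2, a subunit of the replicative helicase, -1.65 ± 0.10 for Rrm1, a ribonucleotide reductase subunit, and -1.64 ± 0.15 for Cdc45, which is part of the active helicase. When BMP2 was added to ADR 11 fell and 2 rose (list median -0.77, all genes -0.08, 58.9% of all genes passing), with Mcm2 at -2.42 ± 0.11 and Tk1 at -2.15 ± 0.10. BMP2 against 0 h gave 3 higher and 5 lower, and ADR against 0 h 0 higher and 2 lower, beside 49.1% and 3.87% of all genes. From 8 h to 16 h on the primary arrays, where Cdkn1a rose by 1.13, 4 of the 15 rose and 6 fell (list median -0.06, all genes -0.05, 33.8% of all genes passing). With BMP2, with ADR or when either was added to the other 0 of 15 passed there, and the largest value with BMP2 was that of Mcm6, -0.34 ± 0.11 (adjusted p = 0.0556). Of all genes 14.2% passed with BMP2, 0.476% with ADR, 0.19% with ADR added to BMP2 and 13.4% with BMP2 added to ADR. With shares of 14.2% or less, 0 of 15 says little about the list in each of these primary comparisons.

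Of 15 CDKs and cyclins 12 were tested. When ADR was added to BMP2 in the transformed set 6 fell and 1 rose, among them Ccne1, cyclin E1, at -1.08 ± 0.12, Cdk1 at -1.01 ± 0.09 and Cdk2 at -0.996 ± 0.08 (list median -0.37), and when BMP2 was added to ADR 7 fell and 2 rose, led by Cdk2 at -1.26 ± 0.08 (list median -0.41). These are 7 and 9 of 12, beside 38.9% and 58.9% of all genes. With BMP2 on the primary arrays 2 fell and 1 rose, Ccnd1, cyclin D1, at -0.84 ± 0.10, Cdk4 at -0.27 ± 0.08 and Ccne1 at 0.67 ± 0.12. Of 13 RB and E2F family genes 9 were tested. Rb1 rose with BMP2 in each set, by 1.69 ± 0.20 against 0 h in the transformed and 0.74 ± 0.17 in the primary arrays, and E2f2 rose by 1.27 ± 0.21 in the former and fell by 1.09 ± 0.11 in the latter. These comparisons held 3 higher and 2 lower, and 2 higher and 2 lower, of the 9, beside 49.1% and 14.2% of all genes.

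Among 12 genes for turnover of the inhibitor proteins, 7 were tested in the transformed set and 9 on the primary arrays. Skp2, the F-box protein that marks p27 for destruction, fell when ADR was added to BMP2 (-1.34 ± 0.18) and when BMP2 was added to ADR (-2.01 ± 0.18), with 2 of 7 higher and 2 lower (list median -0.09), and 1 higher and 2 lower (-0.15), in these comparisons. As 38.9% and 58.9% of all genes passed there, with medians of -0.02 and -0.08, the counts say little about the list. Of 15 Polycomb and Jumonji regulators of the Cdkn2a locus 9 were tested in each set. Ezh2, the Polycomb methyltransferase, fell by 1.08 ± 0.09 when ADR was added to BMP2 in the transformed set, where 2 rose and 3 fell of 9 (list median -0.17), beside the same 38.9%. Cbx7, a Polycomb reader of that locus, was the 1 of 9 to pass with BMP2 on the primary arrays (-0.81 ± 0.12), and was lower by -3.02 ± 0.09 on the transformed Smad1f/f arrays, where 7 of 10 were lower and 2 higher, beside 78.2% of all genes.

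**Figure D5:**
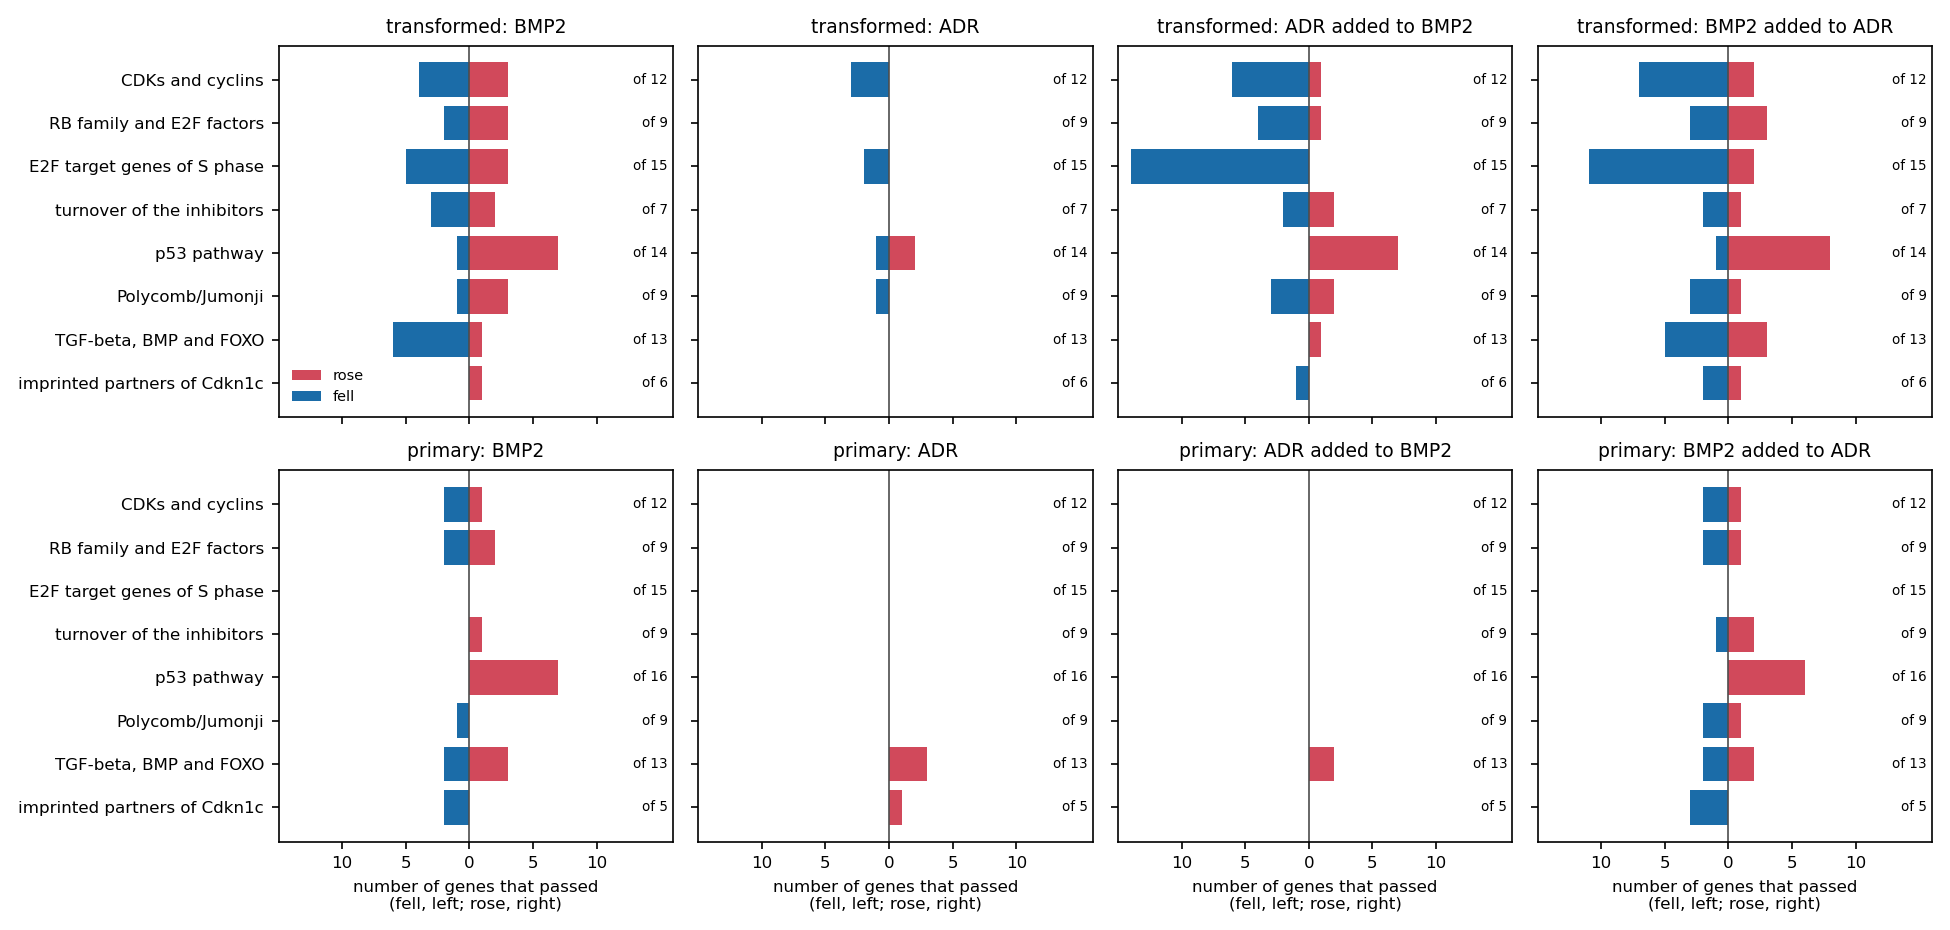
Number of genes of each list that rose (right) and fell (left) at an adjusted p under 0.05 in 8 comparisons, with the number tested at the right edge. The S phase E2F targets fall as 14 of 15 when ADR is added to BMP2 in the transformed set and as 0 of 15 in each primary panel. Of all genes 38.9% passed in the former and 0.19% to 14.2% in the latter, where 0 of 15 says little about the list.

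Profiles most like each member were sought by Pearson r over the 8 arrays of a set, among 6887 genes detected on all 8 transformed and 6581 on all 8 primary arrays, as a description of arrays that share conditions. Cdkn2c was followed most closely by Dexi, Pmaip1 and Ddit4l in the transformed set (r = 0.996 for each). Next to Cdkn1a stood Ifi35 (r = 0.990), Lrwd1 and Thap7 there, and Ak1 (r = 0.998), Fbxw9 and Nme4 on the primary arrays. Cdkn1c ran with Ddhd1, H2-T9 and Creld2 (r = 0.994, 0.992 and 0.989) in the transformed set and with Il24, Gpt and Vps16 (r = 0.990, 0.990 and 0.981) on the primary arrays, and no gene was named in both. Cdkn2b ran with Armcx1, Bhlhe40 and Mterf1b in the former (r from 0.977 to 0.980) and Eef2, Tmem59 and Ccdc120 in the latter (r from 0.977 to 0.978). Cdkn2a was nearest to Ggcx (r = 0.983), and to Pcdhgb4 (r = 0.961), and Cdkn2d to Eloc (r = 0.963) and Ccdc9 (r = 0.962), in the same order of sets. Cdkn2c had on the primary arrays its closest profile in Maff (r = 0.937).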

How the data were processed

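Total RNA was labelled with Cy3 and hybridised to Illumina arrays that were read with GenomeStudio 2011.1, per the submitters' processing notes. The deposited signals are bead intensity values on a linear scale, with no background subtraction or normalization seen in them. The deposited detection columns hold a fraction, 1 minus the detection p, and were turned round. The log2 table that the authors deposited, centred by array and probe, was an alternative. For Smad1-/- with BMP2 the deposited signals are a copy of those for Smad1f/f with BMP2 (100% of probes). They were recovered from the log2 table with the constant that brought values closest to 0.1 steps (99.9% of values within 0.01 of a 0.1 step). The same procedure returned 100% of the signals of the other 15 arrays, which had also supplied its probe terms. Neither figure is therefore an independent check. The Spearman correlation of the recovered signals was 0.992 with the detection values of that array and 0.947 or less with those of the others.

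Signals of all arrays were background corrected with limma's normexp from detection p (offset 16), quantile normalized and log2 transformed (limma 3.58.1, R 4.3.3). The platform table names 1 gene for 20984 of 24613 probes, several for 1 and none for 3628. A fit used probes with detection p under 0.05 on 2 or more of its arrays, 1 per gene, the brightest over 16 arrays, and each unnamed probe by itself. Contrasts came from lmFit and eBayes with a variance trend, two-sided. Fits were tested on simulated data. Named list genes are the 2 to 4 that changed most, taken from those that passed where any passed, with Mdm2, Smad1, Id1 and Id3, and likeness names the 3 genes of highest r for members with a range of at least 0.5. Replicates were absent, so p-values measure the spread about additive terms. Members, lists and tests were chosen with earlier results of these data known. Alternatives were other background corrections, scalings, detection filters, probe rules, variance trends, 1 fit of all arrays and leaving out each array. Figures were drawn with Python 3.11.15.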

Additional observations from a re-analysis of the deposited data

Results flagged for a closer look

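Several differences between conditions or sets passed a test of the difference itself, in limma fits with 1 array per condition. In the transformed set the change with ADR was greater in the presence of BMP2 for Cdkn1a (0.82 on the log2 scale) and for Cdkn2b (0.99). Without BMP2 that change is ADR at 12 h against untreated at 0 h, so time and the interaction cannot be told apart. ADR added to BMP2 moved members differently in the transformed and the primary arrays. As transformed (mean of both genotypes) minus primary, the difference was 0.68 for Cdkn1a, 0.98 for Cdkn1c, 0.77 for Cdkn2a, 1.48 for Cdkn2b and -0.87 for Cdkn2d. The same difference for BMP2 added to ADR was 3.67 for Cdkn1c and 1.64 for Cdkn2c. Among the differences in ADR added to BMP2, the Cdkn2a value did not pass with the other probe of that gene (-0.22, adjusted p = 0.593) or the mean of its probes (0.27, adjusted p = 0.294). Leaving out 1 array took Cdkn1c to 0.78 (adjusted p = 0.0509, without Smad1f/f with BMP2) and Cdkn2d to -0.63 (adjusted p = 0.0571, without Smad1f/f with both agents). The sets also differ in time point and in the fibroblast markers, whose part in these values was not tested.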

How the results depend on the processing

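Of 38 member changes that passed, the processing alternatives gave 308 values, of which 287 kept direction and call, 18 lost the call and 3 changed sign, and leaving out 1 array gave 400, of which 361 kept the call and 39 lost it. For the 64 that did not pass, the processing alternatives gave 533 values, of which 13 gained the call and 3 changed sign and passed, and leaving out 1 array gave 560, of which 11 gained the call. With median scaling Cdkn1a with BMP2 alone against 0 h turned to -0.021, where that scaling moved the median of all genes to -0.19. An alternative added after seeing the data, the other probe of a gene, turned the Cdkn2a difference between times to 0.096 and its difference between the sets in ADR added to BMP2 to -0.22, the Cdkn2c interaction of BMP2 and ADR to 0.92 and its difference between the sets to 1.21, and the mean of the probes gave 0.57 for the last. Members that passed for ADR against 0 h in the transformed set numbered 1 in the authors' log2 values and 0 to 2 when an array was left out, against 2. For the genotype by ADR interaction they numbered 0 to 1 when an array was left out, against 0. In 1 fit of all 16 arrays 0 passed for ADR against untreated and 0 for ADR added to BMP2 on the primary arrays, against 1 for each, and the latter count was 0 to 1 when an array was left out. Cdkn2a with ADR added to BMP2 was 0.38 in the authors' log2 values, against 0.60. Over all genes, ADR added to BMP2 on the primary arrays gave 18 calls and 2 to 23 when an array was left out, and ADR against 0 h in the transformed set gave 398 and 6 to 321. The cause of these shifts was not tested. A slide block was not run, as no slide is named in the files. No paired analysis was possible by replicate number because each condition has 1 array, and arrays were instead matched within a genotype or a time by the additive terms of the fits. Cdkn1b, near background on all but 1 array, and the dimmer Cdkn2a probe in the transformed set are where signal over background limits what can be said.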
